A study of Mus musculus with 28 samples.

Results

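The genes described here are 8 genes of astrocyte coupling and astrocyte volume regulation, chosen by name. The choice was made with earlier results of these data known, so shares of all genes set beside them are a description. The 8 genes were matched by symbol to Ensembl identifiers of GRCm38, out of the 53342 gene identifiers in each count table. They are the connexins Gja1, Gjb6 and Gjb2, the paired endfoot membrane genes Mlc1 and Hepacam, the anion channel genes Clcn2 and Lrrc8a, and the tweety family gene Ttyh1. All 8 were found in the 3 tables. RNA was sequenced from mouse cerebral cortex in 3 experiments: bulk RNA-Seq at P24 and at P17, with 4 Ctrl and 4 cKO mice at each age, and TRAP-Seq at P24, with 3 Ctrl and 3 cKO mice. TRAP-Seq (translating ribosome affinity purification) reads the messenger RNA bound to tagged ribosomes, and each of its mice gave an Input library and an IP library. The cKO mice carried mGFAP-Cre and were loxP/loxP at α2-Na/K ATPase, so that the astrocyte sodium pump subunit was deleted where the mouse GFAP promoter drives Cre. The Ctrl mice were sex-matched littermates with α2-Na/K ATPase loxP/loxP or loxP/+, for which no driver is given. All strains were kept on C57BL/6J. In the TRAP-Seq mice the tag, EGFP fused to the ribosomal protein L10A, needs Cre, so that the Ctrl mice of that experiment are inferred to carry the driver as well, and any cell with an active driver contributes to the IP. In the bulk experiments the driver goes with the genotype, and the effects of both cannot be told apart there.

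Astrocytes are joined into a network by gap junctions, channels built from connexin proteins of neighbouring cells. In cortex the main astrocyte connexins are Cx43, the product of Gja1, and Cx30, the product of Gjb6, while Gjb2 encodes the closely related Cx26, which is also made by leptomeningeal cells. The network spreads potassium, glutamate and metabolites taken up by single cells. Astrocytes swell as they take up potassium and water, and they shed anions and osmolytes to return to their volume. MLC1 is a membrane protein of perivascular endfeet, and GlialCAM, the product of Hepacam, is the adhesion molecule that carries MLC1 and the chloride channel ClC-2, the product of Clcn2, to cell contacts. Mutations of MLC1, HEPACAM and CLCN2 cause human leukodystrophies with water-filled white matter. Lrrc8a encodes the obligatory subunit of the volume-regulated anion channel, and Ttyh1 a membrane protein of the tweety family.

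On GRCm38 the 8 genes lie on 7 chromosomes. Gjb2 (ENSMUSG00000046352, chromosome 14, 57098600 to 57104702) and Gjb6 (ENSMUSG00000040055, chromosome 14, 57123303 to 57133611) are neighbours on the minus strand with a gap of 18.6 kb. Gja1 (ENSMUSG00000050953) is on chromosome 10 from 56377330 to 56402513, Mlc1 (ENSMUSG00000035805) on chromosome 15 from 88955884 to 88979007 and Hepacam (ENSMUSG00000046240) on chromosome 9 from 37367351 to 37386575. Clcn2 (ENSMUSG00000022843) is on chromosome 16 from 20702964 to 20717746, Lrrc8a (ENSMUSG00000007476) on chromosome 2 from 30237715 to 30263790 and Ttyh1 (ENSMUSG00000030428) on chromosome 7 from 4119408 to 4136708. The counts of Lrrc8a are uncertain, because 66.23% of its exonic bases (2853) also belong to Gm28035, a protein-coding gene model on the same strand, and the counting rule for shared reads is not given in the sources used here. Ttyh1 shares 244 exonic bases (3.83%) with the antisense gene D030047H15Rik and 180 (2.82%) with 9430041J12Rik, and no strand setting is given either.

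The bases upstream of the 3 connexin genes are shown because these are the connexins among the 8 genes, and because Gjb6 and Gjb2 are neighbours in the genome. They are the 250 bases before the RefSeq start on GRCm38.p6, written in the direction of the gene. The stretches are chr10:56377050-56377299 on the plus strand for Gja1, chr14:57133612-57133861 on the minus strand for Gjb6 and chr14:57104703-57104952 on the minus strand for Gjb2, none of which overlaps an annotated exon. Capitals mark GC boxes, GGGCGG or its reverse complement.
Gja1: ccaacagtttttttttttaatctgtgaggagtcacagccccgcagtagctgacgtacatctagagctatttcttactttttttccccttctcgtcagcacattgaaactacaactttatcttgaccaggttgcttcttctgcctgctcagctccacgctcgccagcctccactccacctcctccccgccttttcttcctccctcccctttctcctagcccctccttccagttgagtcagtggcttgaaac
Gjb6: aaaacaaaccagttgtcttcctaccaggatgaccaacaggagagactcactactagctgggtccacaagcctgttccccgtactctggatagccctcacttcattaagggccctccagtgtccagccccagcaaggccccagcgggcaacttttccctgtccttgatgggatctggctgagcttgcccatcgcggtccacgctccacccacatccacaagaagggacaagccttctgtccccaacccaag
Gjb2: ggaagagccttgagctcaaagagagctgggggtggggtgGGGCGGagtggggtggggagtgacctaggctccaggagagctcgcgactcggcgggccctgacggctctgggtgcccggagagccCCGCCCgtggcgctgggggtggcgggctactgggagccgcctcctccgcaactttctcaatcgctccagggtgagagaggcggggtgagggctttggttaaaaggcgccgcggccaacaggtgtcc
The neighbouring genes Gjb2 and Gjb6 had unlike upstream sequence: that of Gjb2 was 69.2% G and C with 18 CpG and 2 GC boxes, and that of Gjb6 was 56.8% with 5 CpG and 0 GC boxes. The Gja1 sequence was 50% G and C with 6 CpG, where the median over 32851 RefSeq promoters was 52.4% and 6 CpG. A GC box was found upstream of 4 of the 8 genes (Gjb2, Clcn2, Lrrc8a and Ttyh1) and of 32.7% of all promoters of the same length, counting both strands. For Mlc1, Hepacam, Clcn2 and Lrrc8a this stretch lies wholly in exons of the GENCODE annotation. Of the other motifs searched, the E-box CACGTG was found for Lrrc8a (6.02% of all promoters), and TTCNNNGAA, ACAAAG and TATAAA were found for 0 of the 8 genes (7.02%, 16.5% and 12.4% of all promoters). The searched motifs do not overlap each other in these sequences.

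Libraries held from 8855488 to 14575306 counts in bulk and from 18433087 to 27242445 in TRAP-Seq, and 3 counts, taken as the smallest detectable level, were worth between 0.110 and 0.339 CPM (counts scaled to the library total). None of the marker genes of 8 cell types was at 0 in any library. In Ctrl mice the 8 astrocyte markers (Aldh1l1, Slc1a3, Slc1a2, Aldoc, Gfap, S100b, Apoe and Glul) summed to between 19744 and 24781 CPM in IP and to between 1841 and 2094 CPM in Input, and the 8 neuronal markers to between 2346 and 2830 CPM in IP and to between 5526 and 6363 CPM in Input. In the separate bulk experiment at P24 the astrocyte markers of Ctrl mice summed to between 5504 and 5926 CPM. Gja1 had a mean of 117 CPM there and Lrrc8a one of 67.1 CPM. The enrichment given below is over Input and not over bulk cortex.

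Most of the 8 genes were enriched in the ribosome-bound RNA of Ctrl mice, and Clcn2 was the exception. Values are CPM scaled by TMM factors, and a gene is called higher or lower where the p of edgeR's two-sided quasi-likelihood test, adjusted by Benjamini-Hochberg across the genes tested, was under 0.05. The main fits of IP against Input and of their interaction with genotype had no term for the mouse that gave both libraries. Comparing IP with Input in Ctrl mice, 7 of the 8 genes were higher and 1 was lower. That comparison called 71.0% of the 24385 genes tested, 35.3% higher and 35.7% lower, and the median log2 fold change was 2.56 over the 8 genes, -0.029 over all genes tested and 3.57 over the astrocyte markers.

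Over Input, the coupling genes Gja1 and Gjb6 had the highest enrichment of the 8 in the ribosome-bound RNA. Gja1 read 25.6, 30.7 and 35.3 CPM in the Ctrl Input libraries and 396, 594 and 569 CPM in the Ctrl IP libraries, a log2 fold change of 4.08 (standard error, SE, 0.18, adjusted p = 4.24e-09). Gjb6 read 11.9, 14.8 and 18.8 CPM in Input and 173, 221 and 262 CPM in IP, which gave a log2 fold change of 3.85 (SE 0.19, adjusted p = 1.04e-08). Gjb2 was a low transcript in both fractions, at 2.45 to 2.78 CPM in Input and 8.997 to 12.6 CPM in IP, with a log2 fold change of 2.02 (SE 0.18, adjusted p = 8.65e-07). For all 3 connexins every IP library lay above every Input library, as for 37.8% of all genes with a mean of at least 0.5 CPM.

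The endfoot pair followed. Mlc1 had a log2 fold change of 3.37 (SE 0.19) and Hepacam one of 3.03 (SE 0.093) from Input to IP, with adjusted p of 2.49e-08 and 6.62e-10. Hepacam was the steadiest of the 8 genes in the Ctrl TRAP-Seq libraries, at 47.3 to 48.5 CPM in Input and 385 to 404 CPM in IP. Ttyh1 had the most reads of the 8, at 161, 189 and 194 CPM in Input and 659, 808 and 874 CPM in IP, which gave a log2 fold change of 2.10 (SE 0.13, adjusted p = 4.40e-08). The volume-regulated channel gene Lrrc8a was enriched least, at 23.0 ± 3.33 CPM in Input and 37.4 ± 6.50 CPM in IP (SD, n = 3 each), which gave a log2 fold change of 0.69 (SE 0.15, adjusted p = 0.00164).

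Clcn2, which encodes the chloride channel that binds GlialCAM, went the other way from its partner. It read 21.4, 24.4 and 20.8 CPM in the Ctrl Input libraries and 10.3, 12.6 and 11.99 CPM in the Ctrl IP libraries, which gave a log2 fold change of -0.94 (SE 0.13, adjusted p = 3.02e-05). It was called lower in a comparison that called 35.7% of all genes tested lower. Markers of other cells that can hold this channel were lower in IP too, 5 of 6 for oligodendrocytes and 7 of 8 for neurons, and the part of such cells in the Input value was not tested.

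**Figure D1:**
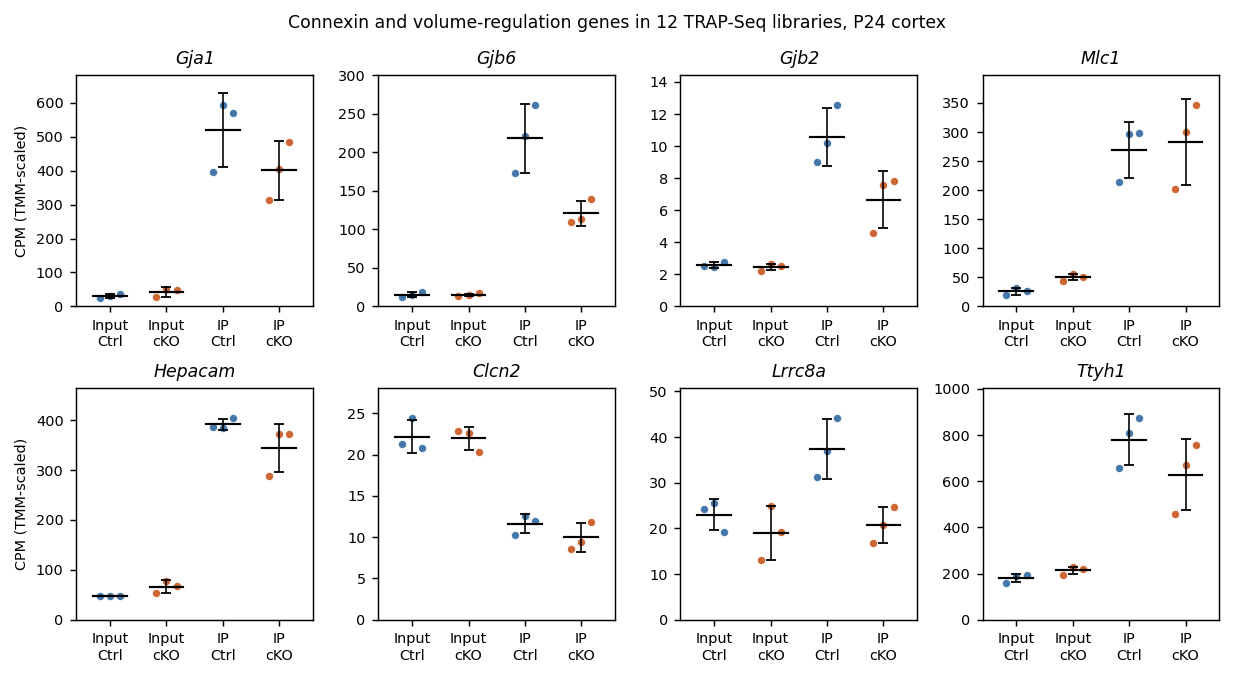
TMM-scaled CPM (vertical axis, from 0, a scale per gene) of the 8 genes in the 12 TRAP-Seq libraries, 3 per group, with points for libraries, black lines for means and bars for SD. IP lies above Input for every gene but Clcn2 in Ctrl mice, and Gjb6, Gjb2 and Lrrc8a are lower in cKO IP than in Ctrl IP.

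The same fractions were compared in cKO mice, where 7 of the 8 genes were called, 6 higher and 1 lower in IP, against 56.3% of the 24011 genes tested, 27.8% higher and 28.5% lower. The log2 fold changes were 3.23 for Gja1, 3.01 for Gjb6, 2.48 for Mlc1, 2.36 for Hepacam, 1.55 for Ttyh1, 1.42 for Gjb2 and -1.15 for Clcn2. Lrrc8a read 13.0, 24.9 and 19.2 CPM in cKO Input and 16.8, 20.7 and 24.7 CPM in cKO IP, so that its fractions overlapped, with a log2 fold change of 0.11 (SE 0.26, adjusted p = 0.748). Each of the 8 log2 fold changes from Input to IP was smaller or more negative in cKO than in Ctrl mice, by between 0.21 for Clcn2 and 0.88 for Mlc1 in an interaction term over all 12 libraries. In that interaction 0 of the 8 genes had an adjusted p under 0.05 with edgeR's quasi-likelihood test or with DESeq2, against 0.0582% of the 25768 genes tested, and 5 had an unadjusted p under 0.05, as did 8.74% of all genes tested. The median of the term was -0.63 over the 8 genes, -0.81 over the 8 astrocyte markers and -0.033 over all genes tested. Without cKO Input replicate 1 Hepacam was called, at -0.80 (adjusted p = 0.0275).

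**Figure D2:**
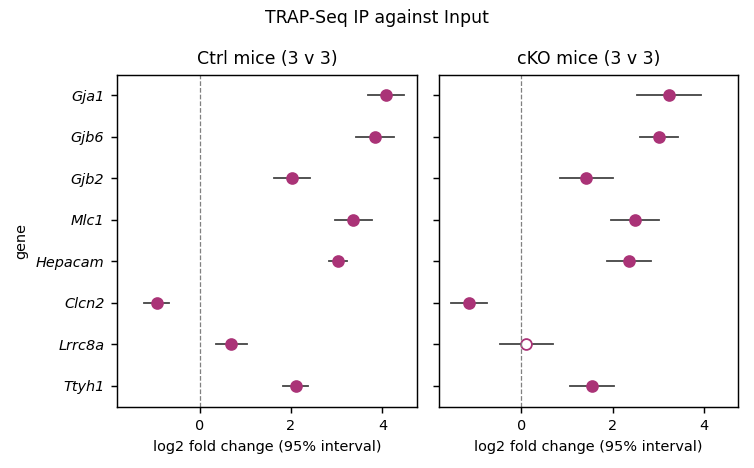
Log2 fold change from Input to IP (horizontal axis) for the 8 genes in Ctrl and in cKO mice, 3 libraries against 3, with 95% intervals. Filled points have an adjusted p under 0.05: all 8 genes in Ctrl mice and every gene but Lrrc8a in cKO mice.

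Levels of different genes were set side by side per kb of exon, because reads grow with length. In Ctrl IP libraries Ttyh1 came first at 122 ± 17.2 CPM per kb (SD, n = 3), then Hepacam at 117 ± 3.18, Mlc1 at 96.2 ± 17.1, Gjb6 at 81.7 ± 16.7, Gja1 at 50.7 ± 10.5, Lrrc8a at 8.69 ± 1.51, Gjb2 at 4.40 ± 0.76 and Clcn2 at 1.93 ± 0.20. The ranges of Ttyh1 and Hepacam overlapped, as did those of Mlc1 and Gjb6, and the other neighbours in this order did not. The place of Gja1 rests on the length used: its merged exons span 10257 bases, and its longest transcript 3889. Divided by the longest transcript, Gja1 stood at 134 ± 27.7 CPM per kb, with a range overlapping those of Ttyh1, at 179, and of Hepacam. In Ctrl bulk cortex at P24 Ttyh1 was first at 67.4 ± 2.81 CPM per kb of merged exon, and Gjb2 last at 2.33 ± 0.41.

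In the ribosome-bound RNA, Gjb6 and Gjb2 fell in cKO mice and so did Lrrc8a, while Gja1, Mlc1, Hepacam, Clcn2 and Ttyh1 did not pass the test. These were 3 of 8 genes, all lower, against 8.42% called lower and 11.6% called higher of the 23864 genes tested. The median log2 fold change was -0.34 over the 8 genes and -0.015 over all genes tested. The astrocyte markers summed to between 16972 and 22160 CPM in cKO IP, overlapping the Ctrl range, and 1 of them was higher and 3 were lower. TMM scaling placed the median of all genes at -0.018, and the library totals alone at -0.13, so that unscaled values sit about that much lower. The comparison shares its Ctrl IP libraries with the comparison of IP and Input in Ctrl mice.

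Gjb6, which encodes Cx30, read 173, 221 and 262 CPM in Ctrl IP and 110.1, 113 and 139.9 CPM in cKO IP. All 3 cKO libraries lay below all 3 Ctrl libraries, and the log2 fold change was -0.84 (SE 0.15, adjusted p = 0.00376), a fold of 0.557. Its neighbour Gjb2, which encodes Cx26, read 8.997, 10.2 and 12.6 CPM in Ctrl IP and 4.61, 7.57 and 7.80 CPM in cKO IP. The groups did not overlap, and the log2 fold change was -0.66 (SE 0.21, adjusted p = 0.0437), a fold of 0.634. Leptomeningeal cells also make Gjb2: their 8 markers summed to between 6.50 and 10.1 CPM in Ctrl IP and to between 8.04 and 9.76 CPM in cKO IP. Of these markers 5 were tested, with 0 called higher and 1 lower, where 8.42% of all genes were lower. Their part in the Gjb2 values was not tested. The call on this low transcript was lost in 4 of the 6 fits that left out a library, those without Ctrl replicate 2 or 3 or cKO replicate 1 or 2, with adjusted p between 0.0764 and 0.1502, and with all 12 TRAP-Seq libraries in one fit (adjusted p = 0.0659).

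Lrrc8a, the volume-regulated anion channel subunit, read 31.2, 36.9 and 44.2 CPM in Ctrl IP and 16.8, 20.7 and 24.7 CPM in cKO IP, without overlap. Its log2 fold change was -0.84 (SE 0.16, adjusted p = 0.00491). The gene model Gm28035, which shares most of its exonic sequence, was at 60.9 ± 10.8 CPM in Ctrl IP and 27.2 ± 4.65 CPM in cKO IP, and the reads of either gene cannot be assigned from these tables. The calls of Gjb6 and Lrrc8a held in each of the 12 alternatives run, including the 6 fits without 1 library, with log2 fold changes between -0.99 and -0.68 for both.

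Gja1, the most enriched connexin, read 396, 594 and 569 CPM in Ctrl IP and 313, 404 and 485 CPM in cKO IP, which overlapped. Its log2 fold change was -0.37 (95% interval -0.76 to 0.026, unadjusted p = 0.0646, adjusted p = 0.177), and it was called with no filter on low counts (adjusted p = 0.0391) and with the replicate block (adjusted p = 0.00947). Whether Gja1 differed from Gjb2 in its change was not tested. Mlc1 read 214, 296 and 298 CPM in Ctrl IP and 202, 299 and 347 CPM in cKO IP, a log2 fold change of 0.078 (95% interval -0.33 to 0.49), and Hepacam had one of -0.18 (95% interval -0.43 to 0.074). Hepacam did not overlap between the groups, with cKO IP libraries at 288, 373 and 372 CPM, so that 4 of the 8 genes were lower without overlap, against 19.2% of all genes with a mean of at least 0.5 CPM. Ttyh1 and Clcn2 had log2 fold changes of -0.30 (95% interval -0.68 to 0.078) and -0.21 (95% interval -0.55 to 0.12).

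Within each library the ratio of Gjb6 to Gja1 reads was lower in cKO IP than in Ctrl IP. The log2 ratio was -1.25 ± 0.16 (SD, n = 3) in Ctrl IP, between -1.43 and -1.12, and -1.71 ± 0.18 in cKO IP, between -1.83 and -1.51. The ratio does not depend on scaling. It restates the changes of both genes in the same libraries and was not tested. In Input it was -1.02 ± 0.10 (SD, n = 3) in Ctrl and -1.45 ± 0.45 in cKO mice, with overlapping ranges. In P24 bulk cortex it was -1.40 ± 0.20 (SD, n = 4) in Ctrl and -1.83 ± 0.41 in cKO mice, where the ranges overlapped, and at P17 it was -1.80 ± 0.13 and -1.87 ± 0.073.

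In whole cortex at P24 the endfoot pair rose in cKO mice, and the connexins, the channel genes and Ttyh1 did not pass the test. In bulk tissue, a change in the number of cells of a type and a change in RNA per cell cannot be told apart. Mlc1 and Hepacam were 2 of 8 genes called, both higher, against 1.72% of the genes tested, 1.26% called higher and 0.462% lower of 22494. The median log2 fold change was -0.0051 over the 8 genes and 0.00050 over all genes tested. The astrocyte markers had overlapping summed levels, between 5504 and 5926 CPM in Ctrl and between 5520 and 5828 CPM in cKO mice, with 2 of 8 higher and 3 lower.

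Mlc1 read 78.5, 73.7, 71.5 and 78.4 CPM in the Ctrl mice and 109, 105, 117 and 102 CPM in the cKO mice. The genotypes did not overlap (two-sided exact permutation p = 0.0286, which is as small as 4 against 4 can give), and the log2 fold change was 0.52 (SE 0.058, adjusted p = 0.000659), a fold of 1.43. Its partner Hepacam read 74.6, 70.6, 71.7 and 69.1 CPM in Ctrl and 88.6, 104, 98.0 and 99.5 CPM in cKO mice. It did not overlap either (two-sided exact permutation p = 0.0286), with a log2 fold change of 0.45 (SE 0.058, adjusted p = 0.00177), a fold of 1.37. Of all genes with a mean of at least 0.5 CPM, 4.08% were higher without overlap. Both calls held in each of the 13 alternatives.

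Gjb6 read 48.8, 44.4, 42.1 and 41.7 CPM in the Ctrl mice and 44.9, 29.3, 35.0 and 34.7 CPM in the cKO mice at P24. Only cKO replicate 1 reached the Ctrl range, and the log2 fold change was -0.30 (95% interval -0.53 to -0.062, adjusted p = 0.247). Without that mouse it was -0.42 and Gjb6 was called (adjusted p = 0.00683), and the number of genes called in all rose from 388 to 952. Gja1 had a log2 fold change of 0.12 (95% interval -0.082 to 0.33) and Gjb2 one of -0.069 (95% interval -0.40 to 0.26). For the channel genes the values were -0.0045 for Clcn2 (95% interval -0.25 to 0.24) and -0.0056 for Lrrc8a (95% interval -0.19 to 0.18). Ttyh1 had one of -0.11 (95% interval -0.22 to -0.0016, adjusted p = 0.372).

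**Figure D3:**
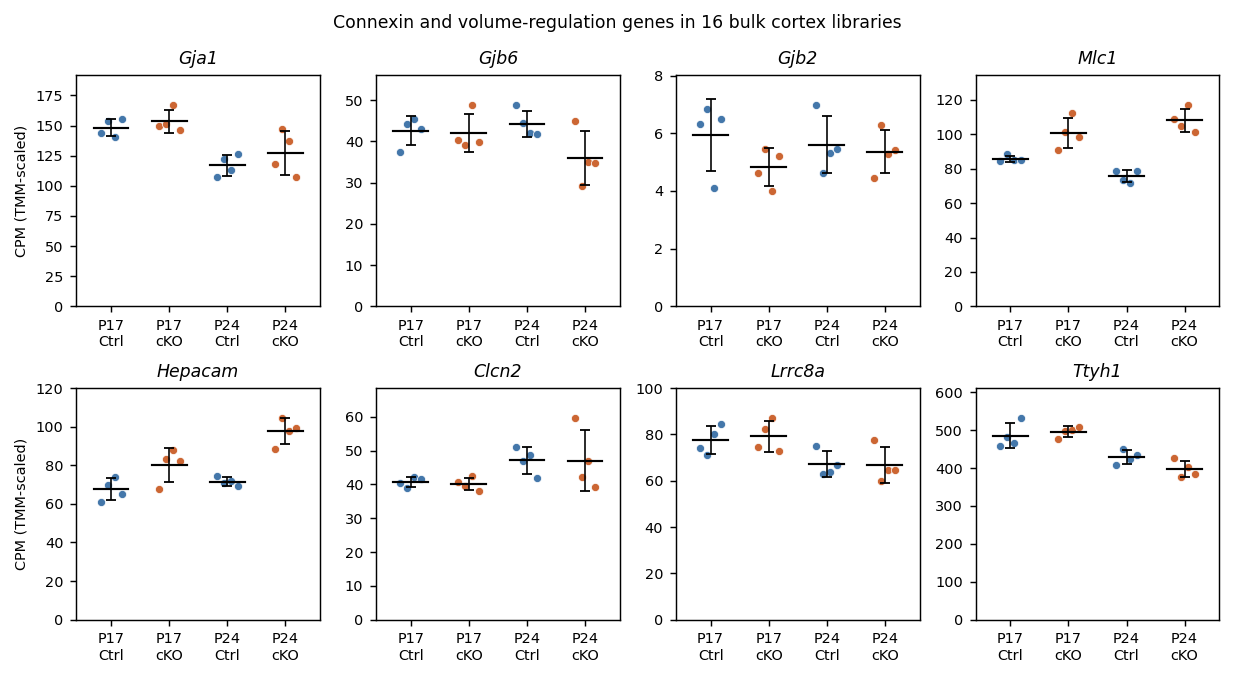
TMM-scaled CPM (vertical axis, from 0, a scale per gene) of the 8 genes in the 16 bulk cortex libraries, 4 per group, with points for libraries, black lines for means and bars for SD. At P24 every cKO mouse lies above every Ctrl mouse for Mlc1 and Hepacam, and at P17 for Mlc1.

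At P17, with the libraries not paired, none of the 8 genes passed edgeR's quasi-likelihood test, its exact test or DESeq2. The quasi-likelihood test called 0.0943% of the 21201 genes tested. With the libraries paired by number Hepacam was called, as given below. The 2 with an unadjusted p under 0.05, as 4% of all genes tested had, were again Mlc1 and Hepacam. Mlc1 read 84.5, 88.3, 84.8 and 84.8 CPM in Ctrl and 90.6, 101, 112 and 98.6 CPM in cKO mice, without overlap, where 1.68% of all genes were higher without overlap. Its log2 fold change was 0.23 (SE 0.070, adjusted p = 0.774). Hepacam read 60.9, 70.03, 74.0 and 65.0 CPM in Ctrl and 67.6, 83.1, 88.1 and 82.2 CPM in cKO mice, which overlapped, with a log2 fold change of 0.25 (SE 0.088, unadjusted p = 0.0147). At this age libraries of the same number deviated together, and blocking on that number Hepacam was called (log2 fold change 0.25, adjusted p = 0.0236), while Mlc1 was not (0.23, adjusted p = 0.0508). The other 6 genes had log2 fold changes between -0.31 for Gjb2 and 0.050 for Gja1.

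The difference between the ages was tested as an interaction of age and genotype over the 16 bulk libraries. None of the 8 genes had an adjusted p under 0.05 with edgeR's quasi-likelihood test or with DESeq2, against 0.0470% of the 23395 genes tested, and 1 had an unadjusted p under 0.05, as did 6.32% of all genes tested. That gene was Mlc1, whose log2 fold change was higher at P24 by 0.28 (SE 0.092, unadjusted p = 0.00628, adjusted p = 0.561). For Hepacam the difference was 0.20 (95% interval -0.041 to 0.44), and for Gjb6 it was -0.28 (95% interval -0.60 to 0.030). The ages were separate experiments, so that levels between ages cannot be told apart from the experiment.

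In the TRAP-Seq Input, the cortex lysate of other P24 mice, Mlc1 was again the gene with the largest difference of the 8, but 0 of the 8 were called with edgeR's quasi-likelihood test, against 0.109% of the 23828 genes tested, and 2 had an unadjusted p under 0.05, as did 4.03% of all. Mlc1 read 19.8, 31.9 and 26.4 CPM in Ctrl Input and 44.3, 55.2 and 51.0 CPM in cKO Input, without overlap. The log2 fold change was 0.95 (SE 0.20, unadjusted p = 0.00107, adjusted p = 0.278), and DESeq2, edgeR's exact test and the fit without a filter on low counts called it, with adjusted p between 0.00674 and 0.0236. Hepacam read 48.5, 47.3 and 47.4 CPM in Ctrl Input and 53.3, 78.5 and 66.9 CPM in cKO Input, also without overlap, with a log2 fold change of 0.47 (SE 0.17, unadjusted p = 0.0211). Without cKO replicate 1 both Mlc1 and Hepacam were called, with adjusted p of 0.0452 and 0.0495. Of the other genes, Gja1 had a log2 fold change of 0.47 (95% interval -0.12 to 1.05) and Ttyh1 one of 0.24. The values were -0.029 for Gjb6, -0.071 for Gjb2, -0.013 for Clcn2 and -0.27 for Lrrc8a. Ttyh1 was the third gene higher without overlap, where 6.62% of all genes were. The astrocyte markers moved the same way in these lysates: they summed to between 2693 and 3289 CPM in cKO Input, above the Ctrl range, with a median log2 fold change of 0.78, and their part in the values of Mlc1 and Hepacam was not tested.

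**Figure D4:**
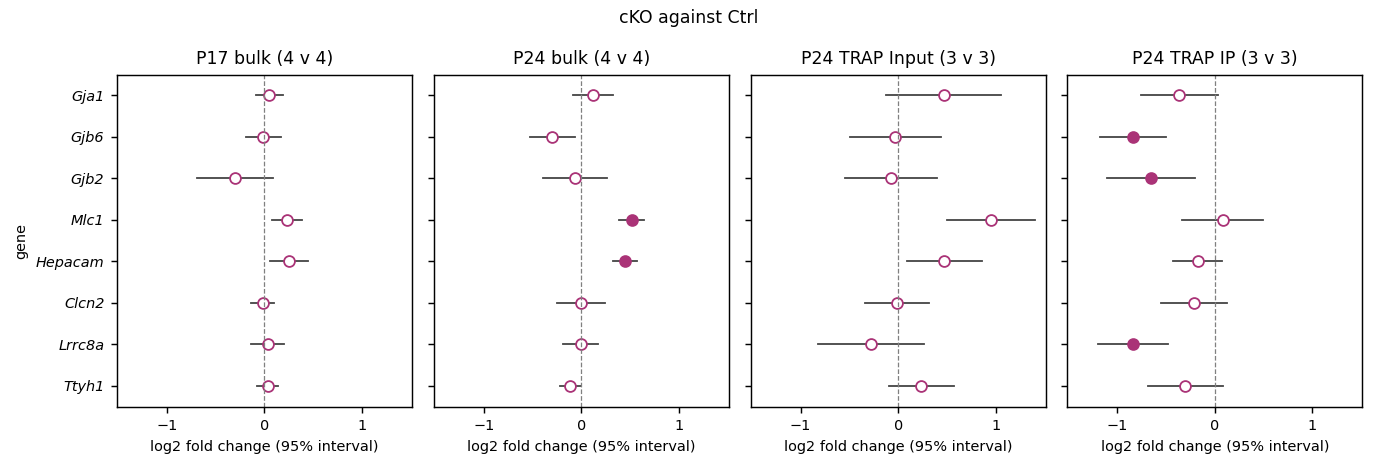
Log2 fold change of cKO against Ctrl (horizontal axis) for the 8 genes in the 4 sets of libraries, with 95% intervals and the number of libraries per group. Filled points have an adjusted p under 0.05: Mlc1 and Hepacam in P24 bulk cortex, and Gjb6, Gjb2 and Lrrc8a in the IP libraries.

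The wider families of these genes were read from a list of 42 further genes, also chosen with earlier results of these data known. In IP, 29 of them were tested, 3 were higher and 2 were lower in cKO mice, which is near the share of all genes tested (11.6% higher and 8.42% lower) and is no result about the list. In P24 bulk 28 were tested and 1 was higher, where 1.26% of all genes were. None of the 27 tested at P17 and the 33 tested in Input was called with edgeR's quasi-likelihood test. The gene higher in both was Cav1, which encodes the caveolin of plasma membrane caveolae and has been placed with MLC1 in astrocytes. It read 4.78, 6.31 and 4.53 CPM in Ctrl IP and 39.2, 78.4 and 38.5 CPM in cKO IP, which gave a log2 fold change of 3.32 (SE 0.27, adjusted p = 4.44e-05). In P24 bulk cortex it was between 7.36 and 8.02 CPM in Ctrl mice and at 10.5, 27.4, 22.3 and 23.4 CPM in cKO mice, which gave a log2 fold change of 1.42 (SE 0.23, adjusted p = 0.00808). Endothelial cells also hold much Cav1: the 6 endothelial and mural markers summed to between 14.9 and 23.5 CPM in Ctrl IP and to between 22.8 and 30.0 CPM in cKO IP, with 1 of 6 higher, and to overlapping ranges in P24 bulk, and their part in the Cav1 values was not tested.

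Of the 3 partners of Lrrc8a in the volume-regulated channel that were tested in IP, 1 was higher and 1 was lower, again beside 11.6% and 8.42% of all genes. Lrrc8c fell, with 13.0 ± 3.46 CPM in Ctrl and 8.11 ± 1.66 CPM in cKO libraries, which gave a log2 fold change of -0.68 (SE 0.21, adjusted p = 0.0389), while Lrrc8d rose, with 49.4 ± 1.33 and 68.4 ± 5.98 CPM, which gave a log2 fold change of 0.48 (SE 0.096, adjusted p = 0.00585). The Lrrc8c groups had their nearest libraries at 9.69 CPM in Ctrl and 9.26 CPM in cKO. Ttyh3, of the tweety family, fell by 0.59 on the log2 scale (adjusted p = 0.0265), and Atp1b1, which encodes a pump β subunit that binds MLC1, rose by 0.36 (adjusted p = 0.0420). Among the 17 other connexins, 0 of the 10 tested in IP were called with edgeR's quasi-likelihood test, beside those same shares of all genes. An unadjusted p under 0.05 was found for 1 of the 10 (Gjc3), as for 33.7% of all genes tested. The oligodendrocyte connexins Gjb1 and Gjc3 were lower in IP than in Input of Ctrl mice, with log2 fold changes of -1.55 and -0.70, opposite to the astrocyte connexins. Gjc3, at 17.5 ± 2.63 CPM in Ctrl IP and 23.1 ± 3.20 CPM in cKO IP, had a log2 fold change of 0.40 between genotypes (adjusted p = 0.0651).

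The genes whose pattern was most like each member were found by Pearson's r of log2(CPM + 1) over the 12 TRAP-Seq libraries, among 14942 genes with a mean of at least 5 CPM. The 12 points come from 2 fractions of 6 mice, so that r follows mainly the difference of IP and Input. For Gja1 they were Elovl2, Gpr37l1 and Ezr (r from 0.996 to 0.997), for Gjb6 Slc39a12, Slc1a3 and Gpc5 (0.996 to 0.997), and for Gjb2 Cd38, Vmac and Gm5884 (0.985 to 0.988). For Mlc1 they were Cyp2d22, Mfsd2a and Tmco4 (0.994 to 0.995), and for Hepacam Rfx4, Acsf2 and Mmd2 (0.996 to 0.997). Clcn2 was most like Ncln, Ssbp3 and Slc22a17 (0.992 to 0.995). Lrrc8a was most like Anks1, Gm28035 and Pcsk6 (0.959 to 0.980) and Ttyh1 most like D030047H15Rik, Gpr37l1 and Fgfr3 (0.994 to 0.999), where Gm28035 and D030047H15Rik overlap the gene they resemble.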

How the data were processed

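RNA was measured in cortex of 28 libraries: 16 bulk and 12 TRAP-Seq. The authors mapped reads with RNA STAR in Galaxy to MM10 and deposited raw counts per Ensembl gene. The counting tool, strand setting and annotation are not given in the sources used here. Column names recur in both bulk tables, so their age was read from each table's name. GENCODE M21 (GRCm38) gave symbols, positions and lengths for 53237 of 53342 identifiers, and 1 P24 identifier, left unnamed, lacks its end. Each library came from 1 mouse, and IP and Input from the same mouse.

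Counts were tested with edgeR 4.0.16 in R 4.3.3: TMM factors, filterByExpr (minimum count 10, minimum total 15, proportion 70%), quasi-likelihood test, Benjamini-Hochberg over all genes tested. The standard error is the log2 fold change divided by the square root of F, and the 95% interval uses the t distribution with the test's degrees of freedom. Intervals and detection floors cover spread between these libraries or counting error only. Exact permutation tests (scipy 1.17.1) used TMM-scaled CPM and are not given at P17, where libraries were read as pairs. At P17 the deviations of same-numbered Ctrl and cKO libraries correlated by 0.167 to 0.380 across genes, so the numbers were read as pairs there. In P24 bulk the correlations ran from 0.0289 to 0.219 and in IP from 0.0355 to 0.116, and no pairs were read there. No cutoff was set for this reading. The main fits had no block at either age. Alternatives were RLE factors, no filter, DESeq2 1.42.0, edgeR's exact test, a replicate block, a joint fit of the TRAP-Seq libraries, and each library left out. The fits were tested on simulated counts. Named genes were the 8 members, listed relatives called in IP or P24 bulk, oligodendrocyte connexins and the 3 most alike genes per member, and some items under this rule are not reported here. The members and lists were chosen with earlier results of these data known.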

Additional observations from a re-analysis of the deposited data

Results flagged for a closer look

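Each gene in each bulk group gave a set of 4 libraries, 32 sets in all that share libraries and are not independent. In 2 of the 32 sets 1 library lay apart from the other 3. Its gap divided by the range passed Dixon's 95% critical value, which chance gives in about 1 of 20 sets. Gjb6 in P17 cKO replicate 3 was at 48.9 CPM, with the others between 39.2 and 40.4 CPM (ratio 0.873). Mlc1 in P17 Ctrl replicate 2 was at 88.3 CPM, with the others between 84.5 and 84.8 CPM (ratio 0.912), below every cKO library of that age.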

How the results depend on the processing

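The count of members called stayed the same under most alternatives. With the replicate block it was 1 at P17 (Hepacam) and 5 in IP (Gja1, Gjb6, Gjb2, Lrrc8a and Ttyh1). In IP the correlations of same-numbered libraries were 0.104, 0.0355 and 0.116, and whether the numbers pair the libraries there was not tested. In Input the count was 1 (Mlc1) with no low-count filter, with DESeq2 and with the exact test. In IP Gja1 was also called with no low-count filter. The block changed no other call of a member. Leaving out 1 library at a time gave 2 to 3 members in P24 bulk, 0 at P17, 2 to 3 in IP, 0 to 2 in Input, 8 and 7 for IP against Input in Ctrl and cKO mice, 0 to 1 for the fraction interaction and 0 for the age interaction. In Input the members called were Mlc1 and Hepacam without cKO replicate 1.

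Over all genes, the number called ranged with the other settings from 385 to 619 in P24 bulk (388 as reported), 18 to 109 at P17 (20), 1684 to 6735 in IP (4782), 8 to 136 in Input (26), 6 to 287 for the fraction interaction (15) and 11 to 62 for the age interaction (11), and without 1 library from 216 to 952, 11 to 19, 2633 to 4810, 4 to 112, 3 to 432 and 4 to 149.

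Values near 0 changed sign, none of them called. Clcn2 in Input was 0.0043 with no filter. Over the fits without 1 library, the log2 fold change ran from -0.15 to 0.055 (Gjb2), -0.14 to 0.071 (Clcn2) and -0.086 to 0.053 (Lrrc8a) in P24 bulk, from -0.091 to 0.017 (Gjb6), -0.013 to 0.075 (Lrrc8a) and -0.043 to 0.0040 (Clcn2) at P17, from -0.10 to 0.30 (Mlc1) in IP, from -0.055 to 0.062 (Clcn2) and -0.17 to 0.16 (Gjb6) in Input, from -0.094 to 0.35 (Lrrc8a) for cKO IP against Input, and from -0.12 to 0.090 (Clcn2), -0.0085 to 0.15 (Gja1) and -0.12 to 0.018 (Lrrc8a) for the age interaction. The cause was not tested. Depth limits Gjb2 most, at 37 counts in P17 Ctrl replicate 3 and in P17 cKO replicate 3, and 3 mice a group limit the precision of every TRAP-Seq value.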
